A study of Mus musculus with 12 samples.

Results

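The subject is miR-129, a microRNA of which both mature strands, miR-129-3p and miR-129-5p, had probes on a mouse miRNA array. The 2 members, listed as mmu-miR-129-3p and mmu-miR-129-5p, were taken by name from the 611 mouse miRNAs that the array lists, among 650 names in all. They were followed across 6 groups of mouse embryonic fibroblasts with a C57BL/6 background. Wild-type cells (ATF6aWT) and cells deficient in ATF6a (ATF6aKO) were each left untreated or kept for 12 h or 24 h in 2 ug/mL tunicamycin. Each group had 2 arrays, 12 in all, from experiments the submitters called independent. Whether the cultures came from 1 or several embryos or lines is not given in the sources used here, so a p-value below measures only the spread between these arrays.

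ATF6a is a membrane protein of the endoplasmic reticulum that is cleaved when misfolded proteins build up there, and its freed part is a transcription factor that turns on chaperone genes. Tunicamycin blocks N-linked glycosylation and so causes such a build-up. A miRNA hairpin is cut into a duplex whose strands, named 5p and 3p after their arm, can each be loaded into an Argonaute protein and guide it to messenger RNAs through a short seed near the 5′ end. miR-129 is best known from brain, and it is also studied in tumours, where its genes are often silenced by DNA methylation.

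The mature strands are shown because the probes were built to read them, and the hairpins because they show what a mature-strand probe can and cannot tell apart. All are from RefSeq, build GRCm38.p6, 5′ to 3′. In the mature strands the capitals mark the seed, bases 2 to 8, and in the hairpins they mark the stretches that match the mature strands.
miR-129-5p: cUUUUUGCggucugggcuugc
miR-129-2-3p: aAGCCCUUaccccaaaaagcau
Mir129-2: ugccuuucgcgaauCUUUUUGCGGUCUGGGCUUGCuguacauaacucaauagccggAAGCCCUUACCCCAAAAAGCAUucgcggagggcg
Mir129-1: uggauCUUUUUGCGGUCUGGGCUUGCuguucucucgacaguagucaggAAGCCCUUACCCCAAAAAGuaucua

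Mir129-2 lies at chr2:94241364-94241453 on the minus strand, inside the non-coding gene Mir670hg and between the coding genes Hsd17b12 and Ttc17. Mir129-1 lies at chr6:29022619-29022691 on the plus strand, outside any annotated gene and between Snd1 and Lep. Both hairpins hold the same miR-129-5p, so its level cannot be assigned to either of them. On the other arm the first 19 bases are shared, and over the 22 bases of the 3p strand the hairpins differ by 1 base, C20U (Mir129-2 base, position from the strand's 5′ end, Mir129-1 base). The array names its probes miR-129-3p with no hairpin number and the files hold no probe sequences, so whether they read 1 or both 3p forms was not tested. The strands have different seeds, and no other array miRNA among the 162 whose names matched RefSeq exactly shares either.

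The array files bear on how firmly these faint miRNAs can be read. Signals were divided by each array's 75th percentile and are given as log2, so 0 is that percentile and a difference of -1 is a halving. The percentile itself ranged from 177 to 630 signal units. Of the 175 miRNAs that passed the filter on faint probes, 73 to 166 were well above background on an array. The lowest counts, 73 to 101, were on the 4 arrays of the last scanning run, which held replicate 2 of all 4 treated groups. All untreated arrays were on 1 slide and all treated arrays on the other, and effects of treatment and of slide cannot be told apart. Wild-type arrays had the first row of a slide and knockout arrays the other row, so the same holds for genotype and row. The array does not measure Atf6 mRNA, which leaves the labelled genotypes unchecked here. Of 8 mesenchymal and fibroblast miRNAs, 7 passed the filter and 5 were detected on all 12 arrays. miR-145, a smooth muscle and mesenchymal miRNA, did not pass. No epithelial, haematopoietic, muscle, pluripotent or neural marker passed, of 6, 6, 4, 8 and 6 on the array.

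miR-129-3p was brightest in untreated wild-type cells, at -1.87 and -1.93 on the 2 arrays, a mean of -1.90 ± 0.04 (SD, n = 2). In untreated knockout cells it was at -3.84 and -3.80, a mean of -3.82 ± 0.03 (SD, n = 2). These groups lay far apart, with replicates nearly on top of each other. Wild-type cells had -2.94 and -2.99 after 12 h of tunicamycin, and -2.53 and -2.84 after 24 h. Knockout cells had -3.57 and -3.43 after 12 h, and -3.34 and -4.16 after 24 h. Every measured scaled value in wild type was above every one in the knockout, the closest being -2.99 (wild type, 12 h) and -3.34 (knockout, 24 h). This order comes from the contrast that chose miR-129, and how many of all miRNAs share it was not counted. On replicate 2 of the treated knockout groups the probe was not well above background. The dimmest readable signals there were -2.94 at 12 h and -3.10 at 24 h, so those 2 values have no firm place in the order. The wild-type value of -2.84 at 24 h, replicate 2, was not well above background either. Ordered by mean, the groups ran from untreated wild type (-1.90) through wild type at 24 h (-2.69) and 12 h (-2.96) to knockout at 12 h (-3.50), at 24 h (-3.75) and untreated (-3.82). The arrays of wild type at 24 h and 12 h did not overlap but differed by less than the test could call, and those of the knockout at 24 h spanned both other knockout groups.

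**Figure D1:**
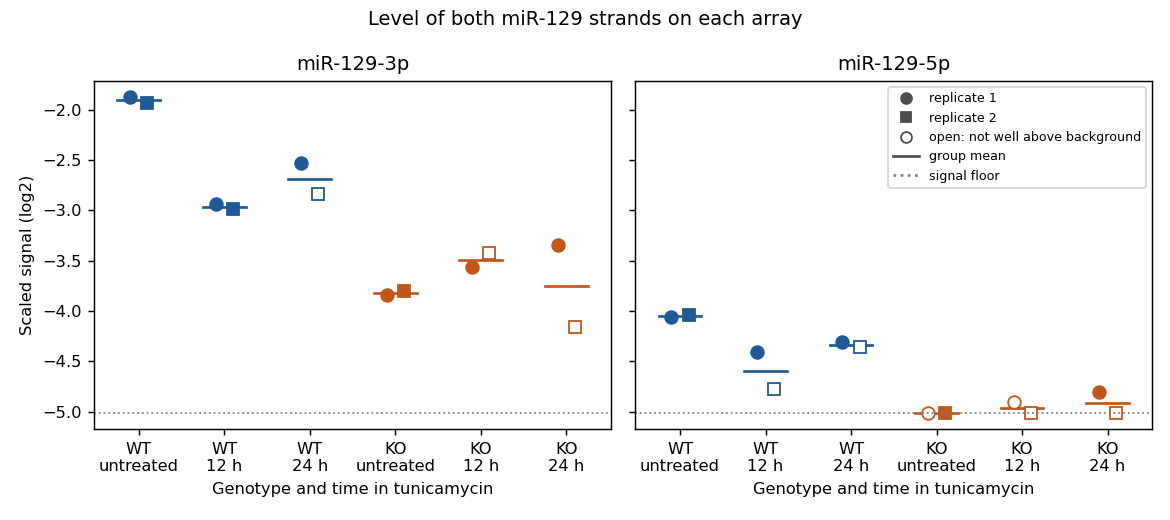
Scaled signal (log2) of miR-129-3p and miR-129-5p on each of the 12 arrays by genotype (WT, KO) and time in tunicamycin; circles are replicate 1, squares replicate 2, horizontal lines group means (n = 2), open symbols arrays where no probe of the miRNA was well above background, and the dotted line the signal floor at -5.02. miR-129-3p sits at -1.87 and -1.93 in untreated wild-type cells and between -4.16 and -3.34 in knockout cells, while miR-129-5p is at the floor on 4 of the 6 knockout arrays.

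miR-129-3p was well above background on 9 of 12 arrays. The other 3, all replicate 2 of a treated group, were wild type at 24 h and the knockout at 12 h and 24 h. All its values come from 1 probe. The second probe for this strand was never detected, and at most 2 of its 10 spots were above background on any array, so a pair of probes for 1 strand did not give the same reading.

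miR-129-5p was close to the detection limit. In untreated wild-type cells it was at -4.06 and -4.04, a mean of -4.05 ± 0.02 (SD, n = 2). In untreated knockout cells both arrays were set to the floor of -5.02. This limit is the median, over arrays, of the dimmest probe signal that exceeded its background, and no order below it is kept. The readable limits of these 2 arrays were lower, -5.30 and -5.65. On an array of the last run the readable limit was higher still, -3.67 for wild type at 12 h and -2.87 at 24 h, above the miR-129-5p values measured there. Wild-type cells had -4.41 and -4.78 after 12 h, and -4.30 and -4.36 after 24 h. Knockout cells had -4.91 and the floor after 12 h, and -4.81 and the floor after 24 h. The group means were -4.05, -4.59 and -4.33 in wild type and -5.02, -4.96 and -4.91 in the knockout, for untreated, 12 h and 24 h. The 3 knockout groups overlapped at the floor, and with so few arrays above background the treated groups could not be put in order against each other. It was well above background on 6 of 12 arrays: both untreated wild-type arrays and 1 array of each other group except the knockout at 12 h, which had none.

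The members were chosen by their scaled signals in knockout against wild-type cells, so these differences are given as a description with no test. Untreated knockout cells differed from wild-type cells by -1.91 log2 units of miR-129-3p, which is 26.5% of the wild-type level, a 3.77-fold difference. The arrays scanned together differed by -1.96 in the first run and -1.87 in the second. After 12 h of tunicamycin the genotypes were -0.53 apart (-0.63 and -0.44 within runs), and after 24 h they were -1.06 apart (-0.81 and -1.31 within runs). The measured knockout value was lower within each of the 4 runs and at each time, and the gap was widest without tunicamycin. In the last run neither knockout array was well above background, nor was wild type at 24 h. The wild-type value at 12 h there, -2.99, lay below the readable limit of its knockout partner, -2.94. Direction and size in that run are therefore not firm.

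For miR-129-5p the difference was -0.97 in untreated cells (-0.95 and -0.98 within runs), with the knockout value at the floor. The floor stands in for lower knockout signals there and so shrinks this difference. The nominal values were -0.37 after 12 h (-0.50 and -0.24) and -0.58 after 24 h (-0.50 and -0.66). In both treated pairs of replicate 2 the knockout was at the floor and the wild type was not well above background, and the knockout at 12 h was so on neither array, so these values measure no size and no bound could be given. The strands were read from the same RNA on the same arrays, so they are not independent measurements.

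**Figure D2:**
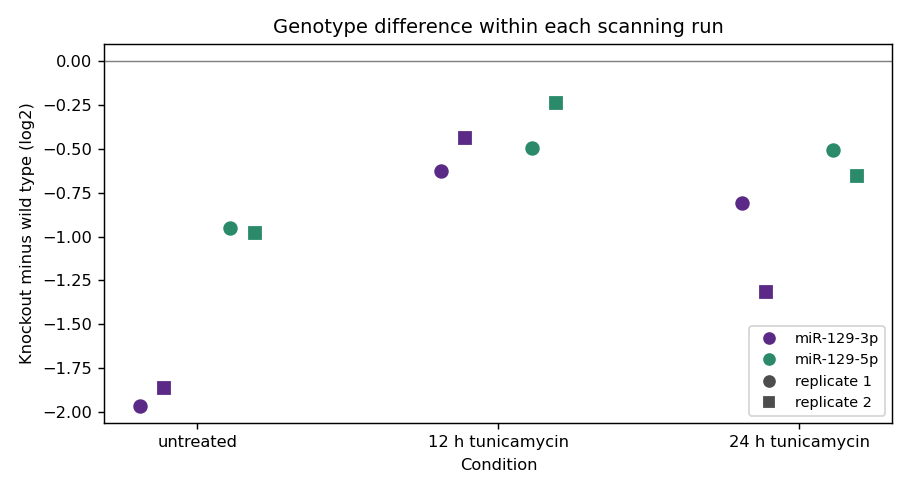
Knockout minus wild type (log2) between arrays scanned in the same run, for miR-129-3p (purple) and miR-129-5p (green) in each condition; circles are replicate 1 and squares replicate 2. All 12 points lie below 0, with miR-129-3p at -1.96 and -1.87 in untreated cells and at -0.63 and -0.44 after 12 h of tunicamycin. For both strands the points of replicate 2 under tunicamycin rest on knockout values not well above background. For miR-129-5p the wild-type values there were not above it either, nor was the wild-type value of miR-129-3p at 24 h.

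In limma's fit over all 175 miRNAs, 28.0% had an adjusted p under 0.05 for the knockout against wild type in untreated cells, 7.43% after 12 h and 9.71% after 24 h. Both knockout arrays lay below both wild-type arrays for 48.6%, 19.4% and 26.9% of miRNAs in the same order of conditions, as did the measured values of both strands. The median difference over all 175 was -0.13 in untreated cells and -0.01 and -0.02 at 12 h and 24 h. Counted from the lowest difference, miR-129-3p was number 1 of 175 in untreated cells, 15 at 12 h and 4 at 24 h, and miR-129-5p was number 12, 31 and 16. Since this contrast chose the members, nothing is read from these ranks.

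The spot signals before scaling show what these levels rest on. The bright probe of miR-129-3p had 10 spots per array. In untreated wild-type cells its mean signal was 102 and 110 units on the 2 arrays, with an SD over spots of 6.23 and 6.48. In untreated knockout cells it was 44.1 and 33.6 units, and the brightest knockout spot (49.3) was below the dimmest wild-type spot (90.6). Without any scaling, the knockout signal was 43.4% and 30.6% of the wild-type signal in the 2 runs.

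After 12 h of tunicamycin the unscaled picture was less even. Wild-type replicate 1 averaged 73.9 units, but its spots ran from 0.64 to 126 with an SD of 49.4. On that array the median spot-to-spot variation over detected probes was 31.2% of the mean, against 8.34% to 15.4% on the other 11. Replicate 2 had 42.4 units. The knockout arrays had 40.6 and 53.0 units, or 54.9% and 125% of wild type. In the second pair the knockout spot signal was thus the higher one, and it became the lower one only after division by the 75th percentiles of 571 and 337. None of the 8 kept spots of that knockout array was well above background, against 10 of 10 on its wild-type partner. With the median over spots in place of the mean, an alternative chosen after seeing this array, the scaled genotype difference at 12 h was -0.51. After 24 h the signals were 65.8 and 24.6 units in wild type and 47.8 and 16.6 in the knockout, 72.6% and 67.2%.

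The brighter probe of miR-129-5p gave 37.4 and 43.4 units in untreated wild-type cells and 14.5 and 10.7 in untreated knockout cells, 38.7% and 24.6% in the 2 runs. After 12 h it gave 40.6 and 14.5 in wild type and 17.3 and 5.51 in the knockout, 42.6% and 37.9%. After 24 h it gave 31.6 and 13.5 in wild type and 20.0 and 6.48 in the knockout, 63.3% and 47.9%. The knockout signal was the lower one in all 6 pairs of this probe. In both treated pairs of replicate 2, however, no spot of either array was well above background. On replicate 1 the probe was also not detected in the knockout untreated and at 12 h. The percentages from undetected signals therefore measure no size. The second probe used for this strand was detected only on the untreated wild-type arrays, with the knockout at 18.5% and 26.0% in untreated cells, and there the knockout was higher in 2 of 6 pairs, 7.67 against 6.61 units at 12 h and 4.19 against 1.56 at 24 h, both replicate 2. For the brighter probe, replicate 2 was dimmer than replicate 1 in all 4 treated groups.

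**Figure D3:**
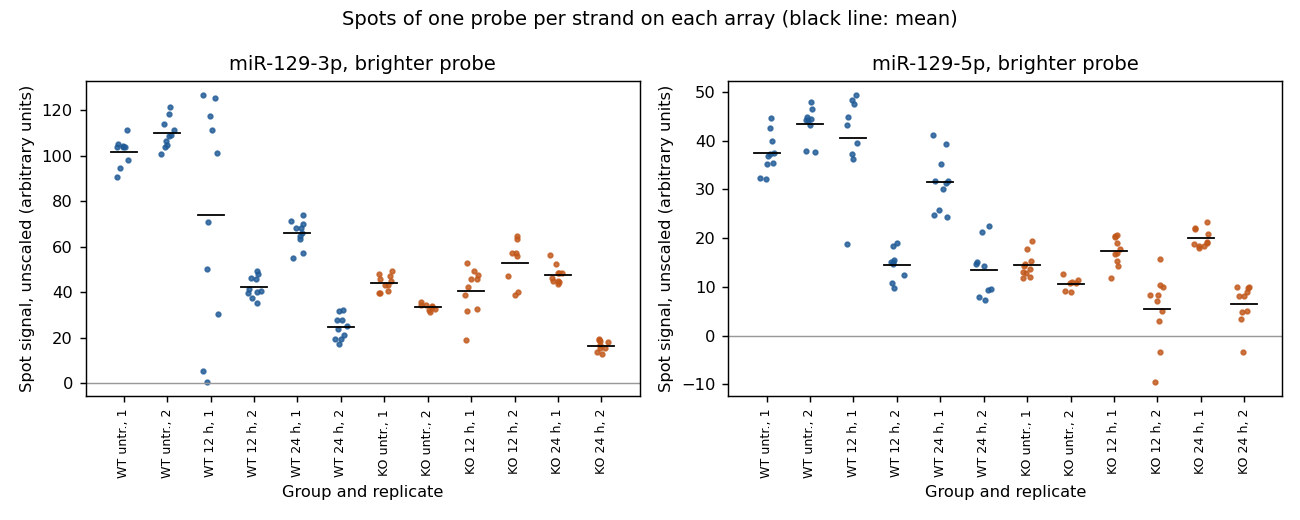
Unscaled spot signal (arbitrary units) of the brighter probe of each strand on each array, by group and replicate; points are spots, black lines their means, blue is wild type and orange knockout. For miR-129-3p the untreated wild-type means are 102 and 110 against 44.1 and 33.6 in the knockout, and the spots of wild type at 12 h, replicate 1, run from 0.64 to 126.

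In wild-type cells miR-129-3p had a lower scaled probe signal after 12 h of tunicamycin. The untreated arrays it is set against also entered the choice of miR-129, and treatment cannot be told apart from slide. This strand differed by -1.06 ± 0.24 (SE) on the log2 scale, to 47.9% of its untreated level, and was lower on 2 of 2 arrays (limma, adjusted p = 0.00913, 95% interval -1.63 to -0.50). For miR-129-5p the same fit gave -0.54 ± 0.13 (SE; limma, adjusted p = 0.0104). That strand passed the filter only because both untreated wild-type arrays detected it, so a lower value elsewhere was largely fixed by the filter, and 12 h replicate 2 was not well above background. Its call is therefore no support for a fall. The drop of miR-129-3p sat among many: 44.6% of the 175 miRNAs were called at this time, 38.3% as lower and 6.29% as higher, and the median over all was -0.27. For 55.4% of miRNAs both treated arrays lay below both untreated ones, as they did for miR-129-3p.

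After 24 h miR-129-3p differed from untreated wild-type cells by -0.78 ± 0.24 (SE; limma, adjusted p = 0.0345, interval -1.35 to -0.22), against 41.1% of miRNAs called, 33.7% as lower, and a median of -0.21. Its 24 h arrays were both below both untreated arrays, as for 51.4% of miRNAs. For miR-129-5p, with the same limit, the difference was -0.28 ± 0.13 and missed the threshold (limma, adjusted p = 0.13, interval -0.58 to 0.017). Between 12 h and 24 h, a comparison with no untreated array in it, neither strand was called. miR-129-3p differed by 0.28 (limma, adjusted p = 0.75, interval -0.29 to 0.84) and miR-129-5p by 0.26 (limma, adjusted p = 0.437, interval -0.037 to 0.56), where 1.14% of miRNAs (2, or 5 with the scanning run as a block) were called. The measured 24 h values of both strands were above both 12 h values, as for 30.3% of miRNAs, but replicate 2 at 24 h was not well above background for either.

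The calls against untreated cells use the same untreated wild-type arrays as the genotype difference on which miR-129 was chosen, so they are not independent of that choice. They also rest on the scaling. miR-129-3p at 12 h was no longer called when arrays were scaled on all probes (-1.74, limma, adjusted p = 0.622) or quantile-normalized (-1.51, adjusted p = 0.198), and leaving out untreated wild-type replicate 1 gave an adjusted p of 0.055 with limma. For miR-129-5p at 12 h, leaving out untreated wild-type replicate 2 gave an adjusted p of 0.053 with limma. The 24 h call of miR-129-3p was lost without any 1 of the 6 wild-type arrays or either untreated knockout array, at an adjusted p of up to 0.187 with limma. Over the same time the summed level of the 7 measured mesenchymal miRNAs moved too. It went from 29.9 to 30.9 in untreated wild-type cells to 15.3 to 15.7 at 12 h and 15.7 to 16.2 at 24 h. This sum is on a linear scale and is mostly miR-21, whose mean log2 level was 4.58, 3.55 and 3.56 in these groups. Of the 7, 6 were called lower at each time, beside 38.3% and 33.7% of all miRNAs. Among the 6 was miR-152, detected on both arrays only in untreated groups, so its lower treated values were largely fixed by the filter. The 4 miRNA entries that read pieces of abundant RNAs summed to 3.24 to 3.91, 3.62 to 4.29 and 3.34 to 3.51 in the same groups. The part of either in the miR-129 values was not tested.

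In knockout cells no change of either strand was called. miR-129-3p differed by 0.32 ± 0.24 (SE) at 12 h (limma, adjusted p = 0.393, interval -0.25 to 0.88). After 24 h the same strand differed by 0.068 (limma, interval -0.50 to 0.63, adjusted p = 0.929). Both 12 h arrays were above both untreated ones, as for 13.7% of all miRNAs, and the 24 h arrays lay on either side of them. The 12 h difference turned to -0.72 when arrays were scaled on all probes and to -0.37 after quantile normalization. For miR-129-5p limma gave 0.055 at 12 h, with an adjusted p of 0.835, and 0.10 at 24 h, with 0.764, and with its untreated value at the floor, where a further drop could not be seen. Between the treated times miR-129-3p differed by -0.25 (limma, adjusted p = 0.779) and miR-129-5p by 0.05 (adjusted p = 0.967). Among all miRNAs 17.1% were called at 12 h (14.3% as lower), 10.3% at 24 h and 2.29% between the times (4, or 8 with the scanning run as a block). In these cells the mesenchymal sum went from 24.5 to 26.7 untreated to 13.7 to 20.5 at 12 h, with 3 of 7 called lower. Whether the response of miR-129 differed between the genotypes was not tested.

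The scanner software also sums probes into 1 signal per miRNA, and the authors' deposited table holds log2 of that sum, with a largest deviation of 1.54e-06. For miR-129-3p the sum did not follow its probes. On untreated wild-type replicate 1 it was 72.0 units, equal to its probe signals together. On 7 other arrays of the first 3 runs the sum was 2.44 to 6.00 times the probe signals. On 3 arrays of the last run it was 1442, 696 and 2390 units, or 52.8, 42.6 and 67.9 times the probe signals, the highest ratio of any miRNA on those arrays. On the remaining array, the knockout at 24 h, replicate 2, the software listed it as not detected. An excess of more than 5% over the probe signals affected 28.5% to 37.2% of detected miRNAs per array, and its cause was not tested. miR-129-5p had ratios of 0.733 to 1.00 where detected and was undetected on all 4 arrays of the last run.

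**Figure D4:**
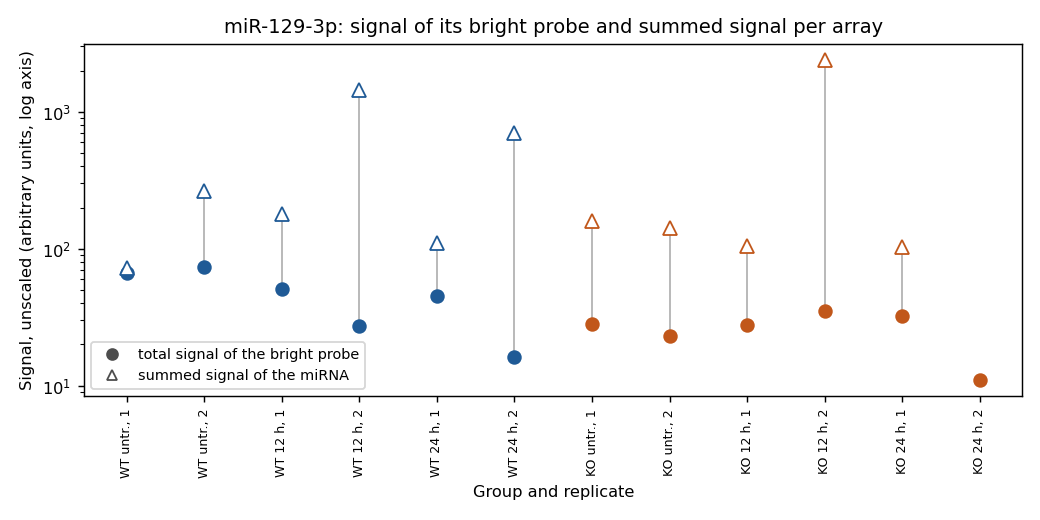
Total signal of the bright miR-129-3p probe (filled circles) and the software's summed signal of miR-129-3p (open triangles) on each array, arbitrary units on a log axis; blue is wild type, orange knockout. On untreated wild-type replicate 1 they almost coincide (66.2 and 72.0), while on the knockout at 12 h, replicate 2, they are 35.2 and 2390; the knockout at 24 h, replicate 2, has no summed value.

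The choice of signal and of scaling therefore changes the genotype gap of this strand. In untreated cells miR-129-3p was -1.91 from the scaled probe signals and -0.43 from scaled summed signals. It was 0.13 from the deposited table, which holds the same sums not scaled between arrays, and there the direction turned. The median over the 173 miRNAs with a deposited value in this contrast was 0.27, above that of miR-129-3p. miR-129-5p kept its direction, at -0.97, -2.62 and -2.12. In wild-type cells at 12 h, miR-129-3p turned to 1.44 with summed signals and 1.88 in the deposited table, and neither was called.

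**Figure D5:**
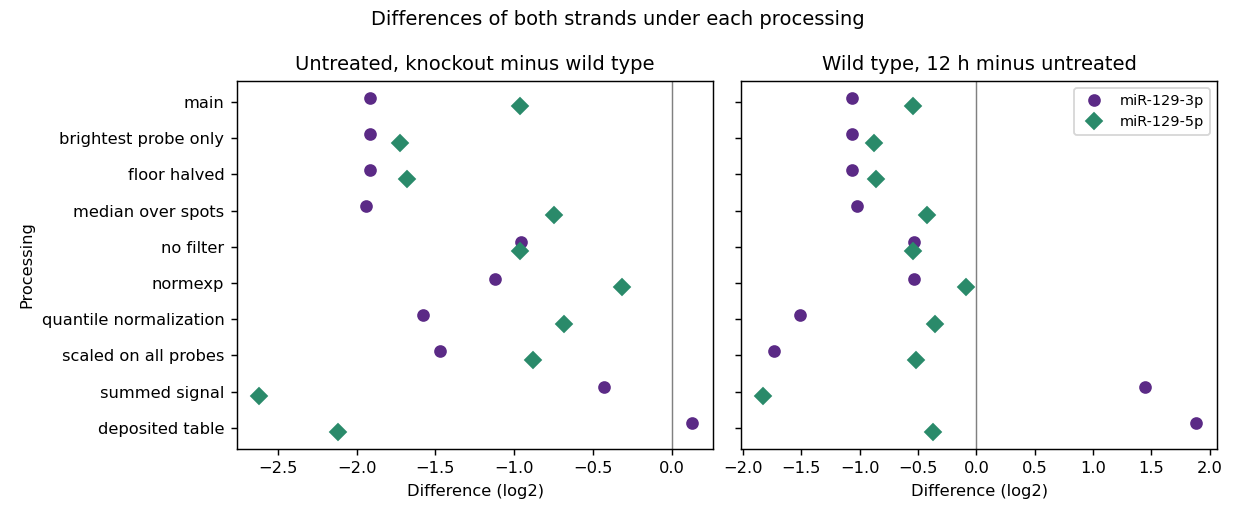
Difference (log2) of miR-129-3p (purple circles) and miR-129-5p (green diamonds) under each processing, for knockout minus wild type in untreated cells and for 12 h of tunicamycin minus untreated in wild-type cells. With signals of single probes all points lie below 0. miR-129-3p crosses to 0.13 in the deposited table on the left, and to 1.44 and 1.88 with summed signals and the deposited table on the right. The deposited table is not scaled between arrays.

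The miRNAs whose values over the 12 arrays most resembled miR-129-3p, by root mean square difference after each was centred on its own mean, were miR-377 (0.32 log2 units), miR-129-5p (0.37), miR-382 (0.40), miR-300 (0.42) and miR-155 (0.42). The median over all other miRNAs was 0.71. In untreated cells the knockout minus wild type values of the other 4 were smaller than that of miR-129-3p: miR-377, miR-382 and miR-300, of the imprinted Dlk1-Dio3 cluster, differed by -1.01, -0.85 and -0.85, and miR-155, an immune-response miRNA, by -0.94. For miR-129-5p the closest were miR-377 (0.16), miR-337-5p (0.16), miR-369-5p (0.17), miR-154 (0.20) and miR-382 (0.20), all from the Dlk1-Dio3 cluster, against a median of 0.45. miR-129-3p ranked 53 on that measure. Like miR-129-5p, miR-369-5p was detected on 6 arrays and at the floor on 4. miR-154 was detected on 7 and at the floor on 1. miR-382 was detected on 8, and miR-377 and miR-337-5p on 9, all never at the floor. The part of the floor and the filter in these small differences was not tested. The share of this cluster among all miRNAs that passed the filter was not counted. The arrays share their scaling, and the likeness values are a description.

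Because miR-129 is known from brain, 25 brain-enriched miRNAs were set beside it. Of these 20, including miR-124, miR-9, miR-128 and miR-137, were not detected on both arrays of any group, 5 passed the filter and 0 were detected on all arrays. In wild-type cells at 12 h, 3 of 5 were called lower and 0 higher (median -0.49), beside 38.3% lower among all 175. At 24 h 3 were called lower and 1 higher, beside 33.7% lower and 7.43% higher. The 3 called lower at each time were miR-132, miR-218 and miR-433. They were detected on both arrays only in untreated groups, miR-132 in wild type alone, and passed the filter through them. Lower treated values were thus largely fixed by the filter, and these calls are no support for a fall. In the knockout 1 of 5 was called lower at each time, beside 14.3% of all miRNAs at 12 h and 14 of 175 at 24 h. It was miR-218, with the same limit. miR-7a, a miRNA of neurons and endocrine cells, differed by 0.72 in wild type at 12 h (limma, adjusted p = 0.068). miR-433 differed by -1.34 there (limma, adjusted p = 0.00374) and was at -3.29 and -4.30 in untreated wild-type and knockout cells. miR-218 differed by -0.70 (limma, adjusted p = 0.000406), with both 12 h arrays at the floor. miR-149 differed by 0.45 (adjusted p = 0.094, limma), with both untreated wild-type arrays at the floor. Between genotypes in untreated cells the 5 had a median difference of 0.067, with miR-218 higher in the knockout (0.49) and miR-433 lower (-1.01), so the list did not move as one.

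The array lists 168 hairpins with both strands. Both strands passed the filter for 15 of them, 1 strand for 71 and none for 82. Of the 15 pairs, 10 had both strands lower in untreated knockout than in untreated wild-type cells, a description from the contrast that chose miR-129, in which several faint strands were held at the floor. The median over all 175 miRNAs was -0.13 in this contrast, and the share of them with a lower mean was not counted. Beside -0.97 and -1.91 for miR-129-5p and miR-129-3p stood miR-434 at -0.89 (5p) and -1.002 (3p), miR-154 at -0.74 and -0.80 and miR-376a at -0.93 and -0.70. These last pairs were picked for their large drops and all lie in the Dlk1-Dio3 cluster, so they are not separate loci. Both strands of miR-31 were higher (0.11 and 0.018), and those of miR-29b, miR-574 and miR-467b did not share a direction. One pair alone, miR-199a, had both strands detected on all 12 arrays, and its strands differed by 0.10 (5p) and 0.31 (3p) between the same groups. In wild-type cells at 12 h miR-199a was at -1.005 (5p) and -0.89 (3p) against untreated, beside -0.54 and -1.06 for miR-129-5p and miR-129-3p.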

How the data were processed

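The authors deposited linear spot intensities. The submitters' processing notes name Agilent Feature Extraction 10.7.1.1 as the software. Background was already subtracted and arrays were not scaled to each other, per the file headers. The authors' deposited table holds log2 of the software's summed signals. Total RNA (100 ng) was labelled with Cy3, per the labels' protocols.

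Control spots (715 of 13715) and outlier spots were left out, and no kept spot was saturated. Spots were averaged per probe, divided by each array's 75th percentile over the 87 probes detected on all 12 arrays, floored at 0.0309 and taken as log2. A probe was detected where over 0.5 of its kept spots were well above background. Each miRNA took the mean of those probes that were detected on both arrays of any group, and 175 miRNAs had such a probe. limma 3.58.1 (R 4.3.3) fitted 6 group means with 6 residual degrees of freedom, with Benjamini-Hochberg adjustment over 175 and a threshold of 0.05. The number of arrays, 2 per group, limits the precision.

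The members and lists were chosen with earlier results of these data known. Knockout against wild type chose them and was not tested. Besides both strands, the text names the 5 miRNAs closest to each strand, up to 4 brain-enriched miRNAs by level, and strand pairs detected on all arrays. miR-434, miR-154, miR-376a, miR-132, miR-31, miR-29b, miR-574, miR-467b, miR-152, miR-689 and miR-720 were named after their values were seen. On simulated data for 24 h against 12 h in wild type, with 30 of 175 miRNAs changed by 1 log2 unit, limma recovered 72.5% with 1.24 false calls on average. The alternatives tried were other scalings, backgrounds, filters, floors, probe choices, signals, blocks and each array left out in turn.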

Additional observations from a re-analysis of the deposited data

Results flagged for a closer look

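After 12 h of tunicamycin the measured miR-129-3p differences had opposite signs in the genotypes. Against untreated cells the value was -1.06 in wild type, where both treated arrays were below both untreated ones, and 0.32 in the knockout, where both treated arrays were above both untreated ones. The knockout value was not called (limma, adjusted p = 0.393, interval -0.25 to 0.88). The difference between these responses was not tested. miR-129 was chosen for a high untreated wild type and a low untreated knockout, so values that move toward each other from there are partly built into the choice. Leaving out any 1 array kept both directions. The knockout value turned to -0.72 when arrays were scaled on all probes and to -0.37 after quantile normalization. These settings shifted the median over all miRNAs by -0.68 and -0.26. The wild-type value turned upward with summed signals and in the deposited table, where the knockout value kept its direction. In all of these settings the signs were no longer opposite. On knockout replicate 2 at 12 h, 0 of 8 kept spots were well above background, and the value of -3.43 lay under the readable limit of -2.94.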

How the results depend on the processing

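Values are log2 differences from limma; 12 h and 24 h are against untreated cells unless a time is named. The cause of a change was not tested except where a floor, a filter or fewer arrays sets it. Scaling on all probes shifted the median over all miRNAs by -0.68 (knockout, 12 h) to 0.52 (wild type, 24 h against 12 h), and by 0.35 for the untreated genotype difference.

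For miR-129-3p in wild type at 12 h the call was lost with scaling on all probes (-1.74), quantile normalization (-1.51), no filter (-0.53, the undetected probe then counting) and normexp (-0.53), and the direction turned with summed signals (1.44) and the deposited table (1.88). At 24 h the values were -0.64, -0.81, -0.39 and -0.16, all uncalled, then 1.23 and 1.00 with the direction turned. At 24 h against 12 h it turned to -0.21 (summed) and -0.88 (deposited). In the knockout, 12 h turned to -0.72 (all probes) and -0.37 (quantile). There 24 h turned to -0.55, -0.30, -2.39 (summed) and -0.54 (deposited), and 24 h against 12 h to 0.17, 0.070 and 0.048 (normexp). The untreated genotype difference was -1.47 (all probes), -1.58 (quantile), -0.43 (summed), 0.13 (deposited, turned), -0.96 (no filter) and -1.12 (normexp). At 12 h it was -0.45, -0.44, -0.42, -0.021, -0.27 and -0.30 in that order, and at 24 h -4.05 (summed), -0.53 (no filter) and -0.63 (normexp).

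For miR-129-5p in wild type at 12 h the call was lost with all probes (-0.52), quantile (-0.36), summed (-1.83), deposited (-0.37), no filter (-0.54, more miRNAs adjusted for), normexp (-0.089) and only the 4 arrays compared (-0.54). At 24 h it turned to 0.31 with normexp and was called at -0.28 with only 4 arrays (adjusted p = 0.0174, limma). At 24 h against 12 h it turned to -0.028 (deposited). The untreated genotype difference was -0.88 (all probes), -0.68 (quantile), -2.62 (summed), -2.12 (deposited), -1.68 (floor halved), -1.72 (brightest probe), -0.75 (median over spots) and -0.31 (normexp). At 12 h it was -0.57 (summed), -1.24 (deposited), -0.80 (floor halved) and -0.74 (brightest probe), and at 24 h -0.41 (quantile), -0.78, -1.02, -0.84, -1.16 and -0.45 (normexp). Requiring a probe detected on all 12 arrays left neither strand a value.

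Leaving out 1 array gave -1.09 to -1.03 for miR-129-3p in wild type at 12 h (adjusted p 0.00115 to 0.055) and -0.94 to -0.63 at 24 h, where 8 of 12 omissions (any wild-type array or an untreated knockout array) ended the call. It gave -0.34 to 0.48 in the knockout at 24 h, turned without 24 h replicate 1, and -0.66 to 0.16 there for 24 h against 12 h, turned without 24 h replicate 2. For miR-129-5p it gave -0.73 to -0.36 in wild type at 12 h (adjusted p 0.00483 to 0.053), -0.055 to 0.15 in the knockout for 24 h against 12 h, and -0.98 to -0.95 for the untreated genotype difference. A lone array left in a group is assumed to vary like the other groups.

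Counts of called miRNAs by limma moved as follows. In wild type at 12 h, 78 became 0 (all probes, 13 at an unadjusted p under 0.05), 10 (quantile), 17 (summed), 0 (deposited, 25 unadjusted), 19 (probes detected on all arrays), 49 (no filter) and 5 (normexp). At 24 h, 72 became 0 (11 unadjusted), 9, 17, 0 (20 unadjusted), 21 and 9 (normexp). At 24 h against 12 h, 2 became 5 with run as a fixed block, 1 with the floor halved and 0 in the other 9 settings that moved it, with 0 to 20 at an unadjusted p under 0.05, and 0 to 7 without 1 array. In the knockout at 12 h, 30 became 0 (10 unadjusted), 8, 5, 0 (26 unadjusted), 7, 14 (no filter), 5 (normexp) and 0 (only 4 arrays, 34 unadjusted), and 13 to 72 without 1 array (72 without 12 h replicate 1). At 24 h, 18 became 0 (11 unadjusted), 10, 6, 2, 6 and 4 (normexp), and 8 to 32 without 1 array. At 24 h against 12 h, 4 became 0 (all probes, quantile, summed, deposited and only 4 arrays, with 2 to 17 unadjusted), 1 (probes on all arrays), 7 (no filter), 7 (brightest probe), 1 (normexp) and 8 (run as a fixed block), and 0 to 56 without 1 array (56 without 12 h replicate 1).

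Replicate numbers paired the groups within a slide, where the number is the scanning run (deviations correlated at 0.74 for the untreated pair and 0.82 to 0.94 among treated groups), but not across slides (down to -0.66). With run as a fixed block neither strand was called for 24 h against 12 h, in wild type (limma, adjusted p = 0.517 and 0.216 for 3p and 5p) or in the knockout (0.573 and 0.862). With the replicate block miR-129-3p in wild type stayed at -1.06 (limma, adjusted p = 0.00933), and no call of either strand changed. Signal over background also limits these values: miR-129-5p was at the floor on 4 arrays and above background on 6 of 12.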
